A study of Mus musculus with 2 samples.

Results

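The genes described here are the killer cell lectin-like receptors of the mouse, taken as every gene symbol in the deposited gene list that begins with Klr, a letter from a to k and a digit. There were 26 such genes of 32285 listed: 11 Klra genes, 5 Klrb1 genes, 3 Klrc genes, 2 Klri genes, 2 Klrg genes, Klrd1, Klre1 and Klrk1. Their RNA was followed by single-cell RNA sequencing of 3′ ends in subcutaneous tumours of 4T1, an established mammary carcinoma line derived from a BALB/c mouse. One library came from tumours given AIE COF-mediated phototherapy (the treated library) and the other from tumours given PBS, and both were collected on day 7 after phototherapy. The host mice are labelled C57BL/c, a spelling that could not be resolved to a strain, and neither the number of animals per suspension nor the light given to the PBS tumours is stated in the sources used here. With 1 library per group no difference between treated and PBS was tested, and every interval below is a 95% interval that covers counting error only.

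These receptors are C-type lectin-like proteins of the cell surface, encoded together in the natural killer gene complex and best known from natural killer (NK) cells, which read through them the class I molecules and stress ligands of other cells. Inhibitory members carry a tail that recruits phosphatases, while activating members signal through small adaptor proteins such as Tyrobp, Fcer1g and Hcst. Some members are also known from T cells and from myeloid cells. The Klra genes, which encode the Ly49 receptors, differ in number and kind between mouse strains, and the reference used by the submitters, mm10, is the sequence of C57BL/6J. Which Klra genes the host mice and the 4T1 cells carry was not tested.

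All 26 genes lie on chromosome 6 of GRCm38, the assembly that mm10 names. Klrg2 (chr6:38625693-38637242) and Klrg1 (chr6:122270596-122282882) stand apart, and the other members lie between positions 128609227 and 131247362. The upstream sequences of 4 Klra genes are shown because the cell classes that carry them differ in part, although their sequences just before the transcription start are much alike. Klra4 and Klra8, the most alike of them, both had their highest level in NK-like cells. Klra4 was also found in cells with little Ptprc, described below. Each is the 250 bases before a RefSeq start site (GRCm38.p6), read 5′ to 3′ on the gene's own strand, the minus strand. Capitals mark GAGGAA, a core of PU.1 and ETS family motifs, on either strand (TTCCTC where it reads on the opposite strand), and in Klra8 also TATAAA on the opposite strand.
Klra4, chr6:130067272-130067521: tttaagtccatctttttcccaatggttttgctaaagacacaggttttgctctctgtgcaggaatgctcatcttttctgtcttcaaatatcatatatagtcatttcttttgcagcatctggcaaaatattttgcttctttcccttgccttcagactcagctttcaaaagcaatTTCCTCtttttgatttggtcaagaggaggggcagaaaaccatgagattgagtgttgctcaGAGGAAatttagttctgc
Klra8, chr6:130129899-130130148: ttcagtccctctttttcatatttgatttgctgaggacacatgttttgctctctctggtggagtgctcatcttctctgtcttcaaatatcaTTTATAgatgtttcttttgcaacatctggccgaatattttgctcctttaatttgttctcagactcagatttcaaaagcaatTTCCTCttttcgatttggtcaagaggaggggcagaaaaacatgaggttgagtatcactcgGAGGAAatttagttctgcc
Klra17, chr6:129876673-129876922: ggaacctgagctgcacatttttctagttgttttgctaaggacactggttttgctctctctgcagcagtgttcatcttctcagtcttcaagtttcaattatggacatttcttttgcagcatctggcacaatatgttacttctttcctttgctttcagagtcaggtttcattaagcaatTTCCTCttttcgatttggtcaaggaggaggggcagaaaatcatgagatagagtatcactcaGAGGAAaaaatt
Klra2, chr6:131247363-131247612: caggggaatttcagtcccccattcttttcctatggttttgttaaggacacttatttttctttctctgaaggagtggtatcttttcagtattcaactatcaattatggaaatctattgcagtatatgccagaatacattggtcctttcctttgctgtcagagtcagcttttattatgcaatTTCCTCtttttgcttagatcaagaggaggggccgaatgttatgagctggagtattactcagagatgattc

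The windows of Klra4 and Klra8 were identical at 84.8% of positions, Klra4 and Klra17 at 81.6%, and Klra4 and Klra2 at 73.6%. GAGGAA begins 78 and 18 bases before the start in Klra4, 79 and 19 in Klra8, 73 and 12 in Klra17, and 70 in Klra2. The motif was present in the first listed window of 13 of the 23 members that have one in the RefSeq table (15 when every window of a gene is counted), against 23.3% of the 32851 windows of all genes. The 13 include near copies, such as Klra3 and Klra9 (90.0% identical), so they are not independent windows. TGTGGT, the core of RUNX motifs, was in 8 of the 23 (14.0% of all windows), TATAAA in 9 (12.4%), AGGTGT, a T-box core, in 1 (11.8%), and TGANTCA, the AP-1 motif, in 0 (6.75%). All were searched on both strands, and AGGTGT and TGTGGT can share letters. A match of letters is a description of the sequence and not a binding site.

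The treated library held 8619 retained cells with 101956259 UMIs (unique molecular identifiers, one per captured RNA molecule), and the PBS library 7864 cells with 126614575 UMIs. Median depth was 3870 and 6318 UMIs per cell, and 39 cell barcodes were found in both libraries. Cells were grouped without any receptor gene, and groups are called "like" a type by marker genes. NK-like cells numbered 89 treated and 83 PBS, T-like cells 1562 and 696, and myeloid cells 1749 and 1187, of which 826 and 616 were macrophage-like, 776 and 447 monocyte-like, and 101 and 102 conventional dendritic-like. Ptprc-low cells (2557 and 3040) are the deep clusters with little Ptprc, the pan-leukocyte CD45 gene. They were rich in Hmga2 (383 and 355 CPM, counts per 1000000 UMIs of the group) and in Rhox5 (768 and 729 CPM), but Epcam was at 0.511 and 0.558 CPM and Krt8 at 0.255 and 0.144 CPM, and fibroblast markers summed to 3205 and 3666 CPM. Since the tumour markers used did not name them, these cells are not called tumour cells here.

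Of the 26 members, 23 had 50 or more UMIs over both libraries. The remaining 3 were Klrb1 and Klrc3 with 39 UMIs each and Klra10 with 9. Klra4 alone had 35080 UMIs, Klra2 7869, Klrd1 4923 and Klrk1 2372. Counts are of 3′ ends, 1 per molecule, so levels of different genes are compared as CPM with no division by length. Near-identical copies limit this: over the last 300 transcribed bases Klra3 and Klra9 were 98.7% identical, Klrc1 and Klrc3 97.3%, Klrc1 and Klrc2 97%, and Klrb1a and Klrb1c 92.3%, so the split of UMIs within these pairs is uncertain. For Klra4 the closest member was Klra1 at 86.0%, and for Klra2 it was Klra7 at 61.3%.

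**Figure D1:**
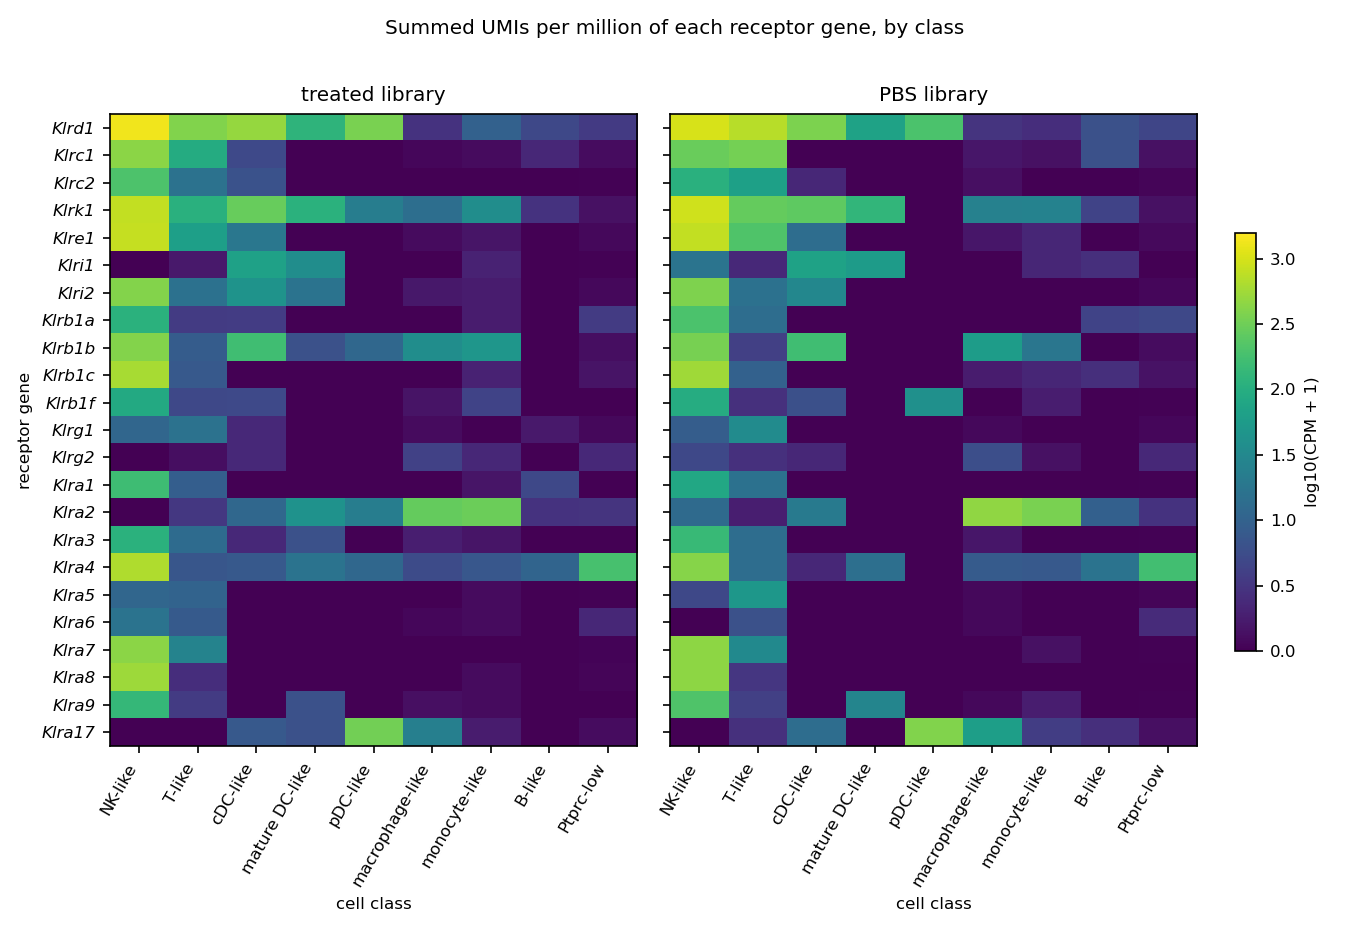
Level of each of the 23 receptor genes with 50 or more UMIs (vertical axis) in 9 cell classes (horizontal axis), as log10 of CPM plus 1, for the treated library at left and the PBS library at right. NK-like cells carry most genes at 100 CPM or above, while Klra2 stands in macrophage-like and monocyte-like cells, Klra17 in pDC-like (plasmacytoid dendritic-like) cells and Klra4 in both NK-like and Ptprc-low cells.

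NK-like cells held the broadest set. Over both libraries 19 of the 26 members had their highest level in this class, although for Klra6 (3 UMIs there) and Klrc3 (7 UMIs) the interval overlaps that of T-like cells. Summed NK markers (which include no member) came to 7554 and 6942 CPM, and T markers to 1291 and 926 CPM with Cd5 at 0. B-like cells, which are not known to use these receptors, give the background: Klrd1 was at 4.25 CPM, Klrk1 at 2.36 CPM and Klra4 at 11.3 CPM over both libraries.

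Klrd1 encodes CD94, the partner chain that Klrc proteins need to reach the surface. NK-like cells had it at 1353 CPM (1194 to 1528) when treated and 1005 CPM (885 to 1136) under PBS, the highest level of any member there. After thinning each cell to 1000 UMIs, 59.2% of treated and 55.8% of PBS NK-like cells had a Klrd1 UMI (68.5% and 73.5% before thinning), against 0.128% and 0.329% of B-like cells. Klrc1, which encodes the inhibitory NKG2A chain, was at 436 and 293 CPM, and Klrc2, which encodes the activating NKG2C chain, at 202 and 107 CPM. Klrk1, the activating receptor NKG2D, was at 798 CPM (677 to 935) treated and 918 CPM (803 to 1044) PBS, and its intervals overlap. Klre1, which pairs with a Klri chain, was at 840 and 795 CPM. Its activating partner Klri2 was at 399 and 376 CPM, while the inhibitory partner Klri1 had 0 UMIs in treated NK-like cells (at most 19.1 CPM by its interval) and 4 in PBS.

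Among the Klrb1 genes, the activating Klrb1c was at 612 and 558 CPM in NK-like cells and at 7.68 CPM in T-like cells over both libraries. The inhibitory Klrb1b stood at 399 and 348 CPM, the activating Klrb1a at 109 and 194 CPM and Klrb1f at 88.1 and 94.9 CPM. Klrg1, an inhibitory receptor for cadherins, had 2 UMIs in each library's NK-like cells.

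Of the Klra genes, 6 exceeded 100 CPM in NK-like cells over both libraries. The activating Klra4 (Ly49D) led with 664 CPM (554 to 789) treated and 419 CPM (343 to 507) PBS. Klra8 (Ly49H, activating) followed with 539 and 455 CPM, and 91.2% of all its UMIs lay in NK-like cells. The inhibitory Klra7 (Ly49G) was at 436 and 451 CPM, Klra9 (Ly49I) at 135 and 210 CPM, Klra3 (Ly49C) at 109 and 142 CPM and Klra1 (Ly49A) at 161 and 83.1 CPM. These levels rest on few cells: the 31 treated Klra1 UMIs came from 8 cells, and 26 of the 114 PBS Klra7 UMIs came from 1 cell. Klra2, Klra5, Klra6, Klra10 and Klra17 had at most 3 UMIs in either library's NK-like cells, and Klra17 had 0 in both.

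Klra genes are known for being switched on in only some NK cells. With cells thinned to 1000 UMIs, 32 of 76 treated NK-like cells (42.1%) and 34 of 77 PBS cells (44.2%) had no UMI of any Klra gene. Cells with UMIs of 2 or more Klra genes made up 31.6% treated and 36.4% PBS, and 9 and 10 cells had 3 or more. The mean was 1.05 and 1.08 Klra genes per cell, and the most seen in 1 cell was 5 and 4. Without thinning the share with 2 or more was 43.8% and 43.4%, and 32 of 89 and 30 of 83 cells had none, so these shares move with depth.

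**Figure D2:**
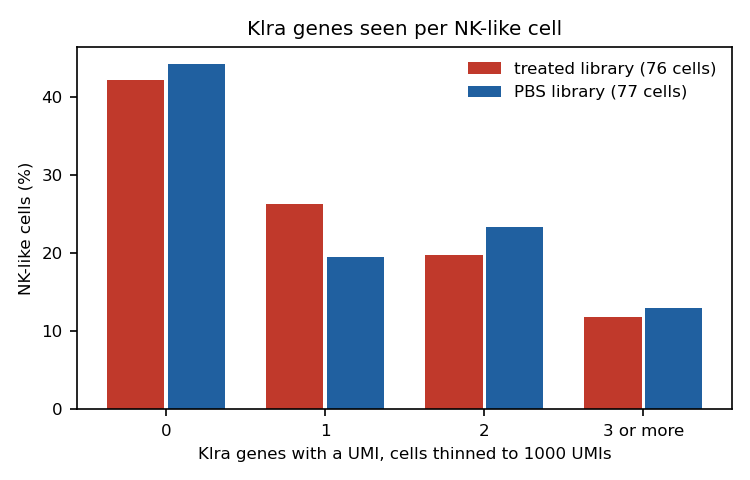
Share of NK-like cells (vertical axis, percent) by the number of different Klra genes with a UMI (horizontal axis), cells thinned to 1000 UMIs, treated (76 cells) in red and PBS (77 cells) in blue. The bars of both libraries have their highest value at 0 genes, 42.1% and 44.2%.

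Some pairs were seen together in single cells, here without thinning. Klra4 had a UMI in 15 of 27 treated (55.6%) and 14 of 22 PBS (63.6%) NK-like cells that had Klra8, while 31.5% and 31.3% of all NK-like cells had Klra4. The gap was not confined to this pair. Klra7 was in 40.7% and 45.5% of the NK-like cells with Klra8, against 30.3% and 31.3% of all. Among NK-like cells with Klra4, 9 of 28 treated (32.1%) and 13 of 26 PBS cells had Klra7, so there the gap was mainly in PBS. Deeper cells show more of every gene, and the part of depth in these gaps was not tested. For Klrc1 and Klra7 no such gap was seen: Klrc1 was in 33.3% and 30.8% of cells with Klra7 and in 38.2% and 33.7% of all. Klrd1 was in 76.5% and 75.0% of the NK-like cells with Klrc1, near the 68.5% and 73.5% of all.

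T-like cells carried a narrower set led by the Klrd1 group. Over both libraries Klrd1 was at 534 CPM, Klrc1 at 197, Klrk1 at 178, Klre1 at 123 and Klrc2 at 36.3 CPM, and no Klra gene exceeded 28.5 CPM (Klra7). Klrc1 had 79.9% of all its UMIs in T-like cells, Klra5 85.6% and Klrg1 71.5%. The levels differed widely between the T-like sub-groups, whose shares also differed between the libraries: naive or central memory cells numbered 956 treated and 226 PBS, CD8 effector cells 137 and 259, memory-phenotype CD8 cells 208 and 74, and regulatory cells 76 and 69.

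**Figure D3:**
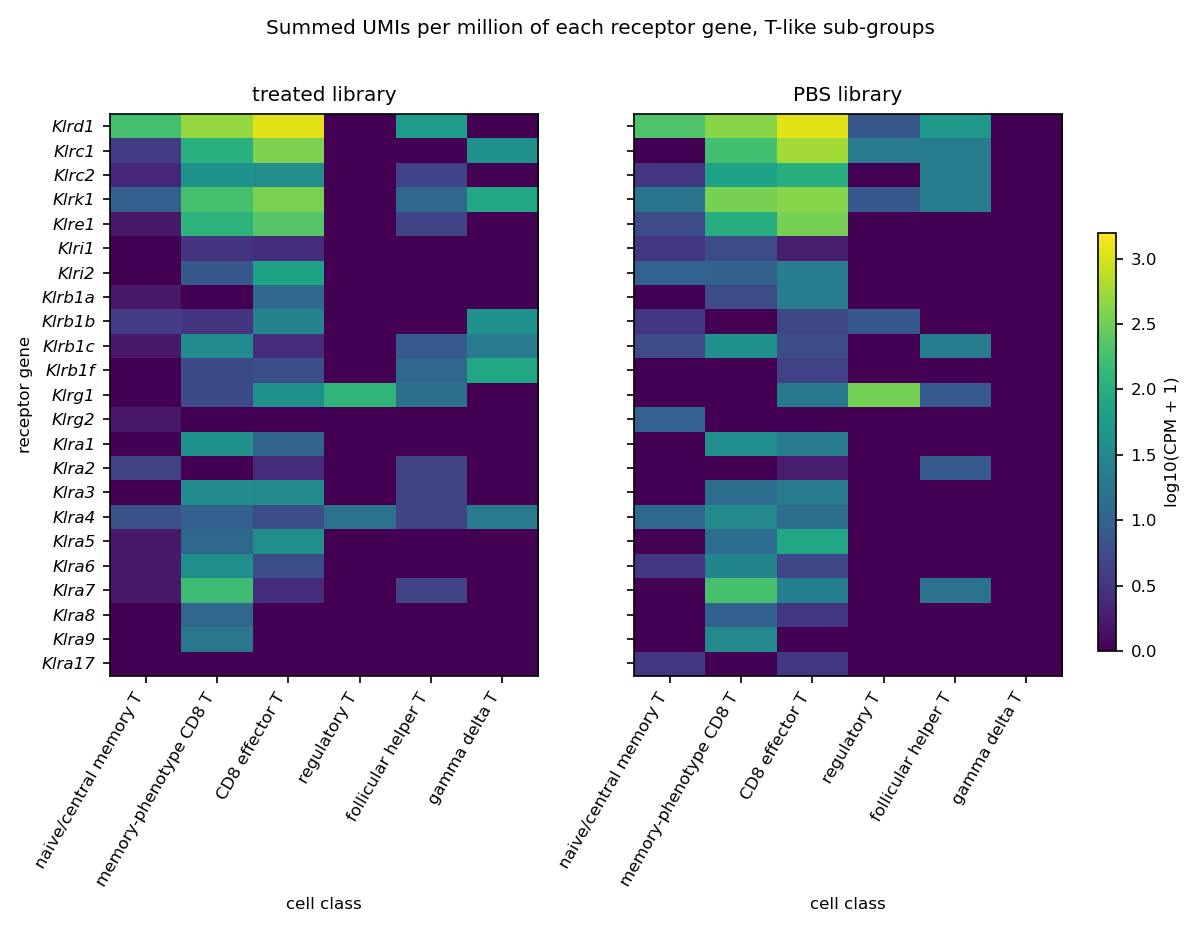
Level of the same 23 genes (vertical axis) in 6 T-like sub-groups (horizontal axis), as log10 of CPM plus 1, treated library at left and PBS at right. The Klrd1, Klrc1, Klrk1 and Klre1 signal sits in CD8 effector and memory-phenotype CD8 cells, Klra7 in memory-phenotype CD8 cells and Klrg1 in regulatory cells. The gamma delta column rests on 24 and 4 cells.

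CD8 effector T-like cells had Klrd1 at 1130 CPM over both libraries, near the 1156 CPM of NK-like cells. By library it was at 1148 CPM (1065 to 1237) treated and 1122 CPM (1065 to 1181) PBS. Klrc1 was at 368 and 566 CPM, Klrk1 at 356 and 417 CPM, Klre1 at 224 and 344 CPM and Klrc2 at 37.6 and 99.7 CPM. Of the cells with a Klrc1 UMI, 73 of 77 treated (94.8%) and 184 of 197 PBS (93.4%) also had Klrd1, against 70.8% and 84.2% of all CD8 effector cells. Klra5 (Ly49E, inhibitory) was the Klra gene with the highest level in this sub-group, at 67.5 CPM over both libraries, and it was clustered in few cells. In the treated library its 23 UMIs lay in 7 cells, 14 of them in 1 cell. In the PBS library 105 UMIs lay in 21 cells, 20 of which also had Klrc1, against 76.1% of all PBS CD8 effector cells. The shared counts in this sub-group are without thinning, and the part of depth in them was not tested. Klra3 (20 UMIs in 3 treated cells, 26 in 5 PBS cells) and Klra1 (25 PBS UMIs, 22 of them in 1 cell) were also confined to few of these cells.

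Memory-phenotype CD8 T-like cells differed from the effector cells in their Klra genes. Klra7 was at 161 CPM (127 to 202) treated and 184 CPM (132 to 249) PBS, against 1.63 and 23.4 CPM in effector cells, where 16 of the 30 PBS UMIs came from 1 cell. Klra1 was at 40.3 and 35.9 CPM (19 and 8 UMIs) and Klra6 (Ly49F, inhibitory) at 38.2 and 26.9 CPM (18 and 6 UMIs). Klrd1 was at 486 and 430 CPM, between the naive and the effector sub-groups. Klra7 in this class stood mainly in 1 of its sub-clusters, number 3 (205 CPM over both libraries), and not in number 8, which was led by Ifit3 and Cmpk2 (14.9 CPM).

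In naive or central memory T-like cells only Klrd1 among the members was measured, at 177 CPM (157 to 200) treated and 208 CPM (168 to 255) PBS. It was at 254 and 283 CPM in sub-cluster 1, led by Dapl1 among others, and at 52.3 and 49.3 CPM in sub-cluster 0, led by Cd40lg and Igfbp4 among others. Its partners Klrc1 and Klrc2 were at 2.05 and 1.54 CPM over both libraries there. Regulatory T-like cells (Foxp3 at 105 and 72.8 CPM) had Klrg1 as their main member, 17 UMIs in 11 treated cells and 51 UMIs in 23 PBS cells. Klrd1 had 0 and 1 UMI there.

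Conventional dendritic-like cells carried an NK-type set of their own with NK markers at low levels. Klrd1 was at 495 CPM (446 to 548) treated and 365 CPM (323 to 409) PBS, Klrk1 at 282 and 257 CPM, and Klrb1b at 165 and 164 CPM. After thinning, 32.0% and 29.4% of these cells had a Klrd1 UMI and 22.7% and 18.6% a Klrk1 UMI. Summed NK markers were at 57.8 and 55.0 CPM, against 7554 and 6942 CPM in NK-like cells and 24.0 and 26.0 CPM in B-like cells. Ncr1, Eomes, Prf1 and Styk1 were at 0, as was Xcl1, which was at 0 in NK-like cells too. The rest of the 10 NK markers had UMIs. Conventional dendritic markers summed to 1132 and 1080 CPM. Klri1 was led by this class at 67.2 CPM (49.9 to 88.6) and 69.1 CPM (51.9 to 90.1). Over both libraries its interval (55.7 to 82.6 CPM) overlaps that of mature dendritic-like cells (20.7 to 74.2 CPM, on 11 UMIs). Klri2, at 43.0 and 29.4 CPM, was lower in conventional dendritic-like than in NK-like cells. The common partner Klre1 was at 15.1 CPM over both libraries and Klrc1 at 1.97 CPM. Mature dendritic-like cells (46 and 22 cells) had Klrk1 at 113 CPM, Klrd1 at 106 CPM and Klri1 at 41.5 CPM over both, but 14 of the 23 treated Klrd1 UMIs came from 1 cell.

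Plasmacytoid dendritic-like cells, known for interferon release, led all classes in Klra17 (Ly49Q, inhibitory). It was at 333 CPM treated (31 UMIs, in a class of 27 cells) and 397 CPM PBS (10 UMIs, in a class of 9 cells), against 38.5 CPM in macrophage-like cells. Because that class is small, 76.3% of the Klra17 UMIs still lay in myeloid cells and 5.71% in plasmacytoid dendritic-like cells. Klrd1 was at 355 CPM treated (33 UMIs) and 198 CPM PBS (5 UMIs) in the same class.

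Macrophage-like and monocyte-like cells had Klra2 (Ly49B, inhibitory) as their leading member. It was at 274 CPM (262 to 285) treated and 463 CPM (445 to 482) PBS in macrophage-like cells, and at 302 CPM (285 to 320) and 362 CPM (339 to 386) in monocyte-like cells. Over both libraries the levels of these classes were 349 and 325 CPM, with overlapping intervals, against 6.73 CPM in NK-like and 3.78 CPM in B-like cells. Klrb1b was at 44.4 and 35.1 CPM, and myeloid cells held 78.4% of its UMIs although NK-like cells had the higher level. Klrk1 was at 17.8 CPM in macrophage-like and 32.0 CPM in monocyte-like cells. Summed NK markers were between 31.1 and 42.9 CPM in these classes.

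Ptprc-low cells held 91.8% of all Klra4 UMIs, 32215 of 35080. Klra4 was at 184 CPM (181 to 187) treated and 171 CPM (169 to 174) PBS, and a UMI was found in 83.1% and 79.6% of the cells. These are deep cells (median 29337 and 32861.5 UMIs), and after thinning to 1000 UMIs the shares were 16.0% and 13.8%, against 1.28% and 1.32% in B-like cells. NK markers summed to 12.7 and 11.9 CPM in the Ptprc-low cells and Ncr1 was at 0.0638 and 0.0577 CPM. Klra8, which was near Klra4 in NK-like cells, was at 0.0494 CPM over both libraries, and Klra1, the closest copy at the 3′ end, at 0.0219 CPM. Both are genes of mm10, the sequence of C57BL/6J. Whether UMIs counted as Klra4 came from a copy that mm10 lacks was not tested. The level differed between the 5 clusters of this class and kept the same order of the extremes in both libraries: 253 and 265 CPM in cluster 11 (led by Cdc20 and Nrg1), and 62.1 and 58.2 CPM in cluster 6 (led by Cilp and H19). The unnamed clusters 0, 2 and 7, shallower and low in Ptprc, had between 118 and 226 CPM in either library.

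**Figure D4:**
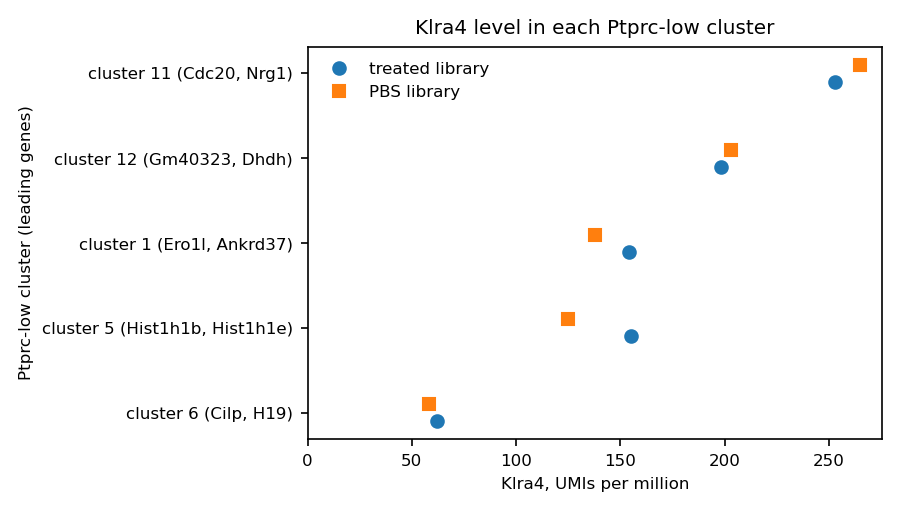
Klra4 level (horizontal axis, CPM) in each of the 5 Ptprc-low clusters (vertical axis, named by number and leading genes), treated library as circles and PBS library as squares. Every cluster of this class carried Klra4 in both libraries, from 58.2 CPM in cluster 6 to 265 CPM in cluster 11.

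The other members were scarce in Ptprc-low cells. Klrb1a was at 2.63 and 3.89 CPM, Klrd1 at 2.45 and 3.73 CPM, Klra6 at 1.24 and 1.5 CPM and Klrg2, a member of unclear function, at 1.33 and 1.34 CPM. Since this class holds most of the RNA, it still contained 79.3% of the Klrb1a UMIs, 80.3% of the Klra6 UMIs and 72.3% of the Klrg2 UMIs. At most 35 Klrb1a UMIs came from 1 cell in the PBS library.

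Treated and PBS were then compared as a ratio of CPM, treated over PBS, given as log2 with its interval. A gene was counted as measured in a class with 50 or more UMIs there over both libraries, and as higher or lower at 1.5-fold or more. Over whole libraries, where a change in the number of cells of a type and a change in RNA per cell cannot be told apart, 0 of 23 members were higher (8.66% of all measured genes) and 5 lower (4.94%). These were Klra5 (log2 −1.37), Klrc1 (−0.86), Klrb1a (−0.72), Klrc2 (−0.69) and Klra9 (−0.64, but −0.21 without doublet removal). Klrd1 was at 21.5 CPM in both libraries, and Klra4 had a log2 ratio of −0.04.

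In NK-like cells, 3 of 15 measured members were higher (10.1% of 1562 measured genes) and 2 lower (10.1%). Klrc2 was higher by log2 0.92 (0.18 to 1.69), Klra1 by 0.95 (0.11 to 1.82) and Klra4 by 0.66 (0.28 to 1.05). The lower members were Klrb1a at −0.83 (−1.64 to −0.07) and Klra9 at −0.64 (−1.37 to 0.07), the latter with an interval that includes no difference. Among the genes with more UMIs, Klrd1 was at 0.43 (0.17 to 0.68), Klrk1 at −0.20, Klre1 at 0.08 and Klrb1c at 0.13. The median over the 15 was 0.13, against −0.0062 over all measured genes. The calls rest on few cells. With every cell given equal weight Klra4 was at 0.00 and Klrb1a at −0.24. Without doublet removal Klra9 was at −0.46, and with thinned cells Klra1 was at 0.02. NK cells were also taken as those with Ncr1 and no Cd3 UMIs (43 and 47 cells). Of the members measured there 0 were higher and 1 lower, Klra7 at −1.67 against −0.05 in the main run. The share of all genes called in these cells is not given here, so that count has no background beside it. Klrc2 was at 0.63 or more in every alternative that gave a value for it.

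In T-like cells, 0 of 11 measured members were higher (7.96% of all measured genes) and 8 lower (12.0%), with a median log2 ratio of −1.14 against −0.0579 over all genes. Klra5 went from 47.7 CPM in PBS to 9.42 CPM in treated cells (log2 −2.34), Klrc2 from 65.4 to 14.9 CPM (−2.13), Klrc1 from 341 to 91.3 CPM (−1.90) and Klre1 from 206 to 62.7 CPM (−1.71). Klrk1 (−1.38), Klrg1 (−1.14), Klrd1 (−0.87) and Klra1 (−0.84) were lower by less. With T cells taken by their Cd3 UMIs Klrd1 was at −0.37 and Klra1 at 0.07, which ends both calls, and with the members kept among the genes used for clustering Klra1 was at −0.53. The make-up of the T-like class differed: CD8 effector cells were 1.59% of all treated and 3.29% of all PBS cells, memory-phenotype CD8 cells 2.41% and 0.941%, and naive or central memory cells 11.1% and 2.87%. Summed NK markers in T-like cells were at 1372 and 2728 CPM.

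Within CD8 effector T-like cells the differences were smaller for the leading genes. Of 7 measured members 1 was higher (7.12% of measured genes) and 4 lower (7.90%). Klrd1 was at log2 0.03 (−0.10 to 0.16) and Klrk1 at −0.23 (−0.46 to 0.00). Klrc2 was at −1.41 (−2.12 to −0.76), Klra5 at −1.12 (−1.84 to −0.46), Klrc1 at −0.62 (−0.85 to −0.41) and Klre1 at −0.62 (−0.91 to −0.34). Klri2 was higher at 1.71 (0.97 to 2.46), on 42 UMIs in 14 treated cells, 12 of them in 1 cell, and 27 UMIs in 17 PBS cells, and it was at 0.96 with equal cell weight and 0.49 with thinned cells. The sub-group joins 2 sub-clusters, 1 of them cycling (led by Mki67 and Top2a among others), with 80 treated and 195 PBS cells in the other and 57 and 64 in the cycling one. Without the cycling cells Klre1 was at 0.19, Klra5 at −0.33 and Klrc1 at −0.43, so these calls depend on it, while Klrc2 was still lower at −0.88. The calls of Klre1 (−0.46 with equal weight) and Klrc1 (−0.49 with thinned cells) also ended under other settings.

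In memory-phenotype CD8 cells 0 of 5 measured members were higher (7.27%) and 2 lower (8.33%), Klrk1 at −0.91 and Klrc1 at −0.68. Klra7 was at −0.19 (−0.76 to 0.40) and Klrd1 at 0.18. With the members kept among the genes used for clustering these calls ended (−0.48 and −0.28), and with each library clustered alone they grew to −1.87 and −2.99. In naive or central memory cells Klrd1, the 1 measured member, was at −0.23 (−0.58 to 0.13; 9.10% of genes higher, 5.17% lower). In regulatory T-like cells Klrg1 was lower, 127 CPM against 338 CPM, log2 −1.41 (−2.29 to −0.59), where 7.12% of measured genes were higher and 7.84% lower. No alternative was run for this ratio. In follicular helper T-like cells no member was measured, while 8.66% of the measured genes were higher and 5.52% lower.

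**Figure D5:**
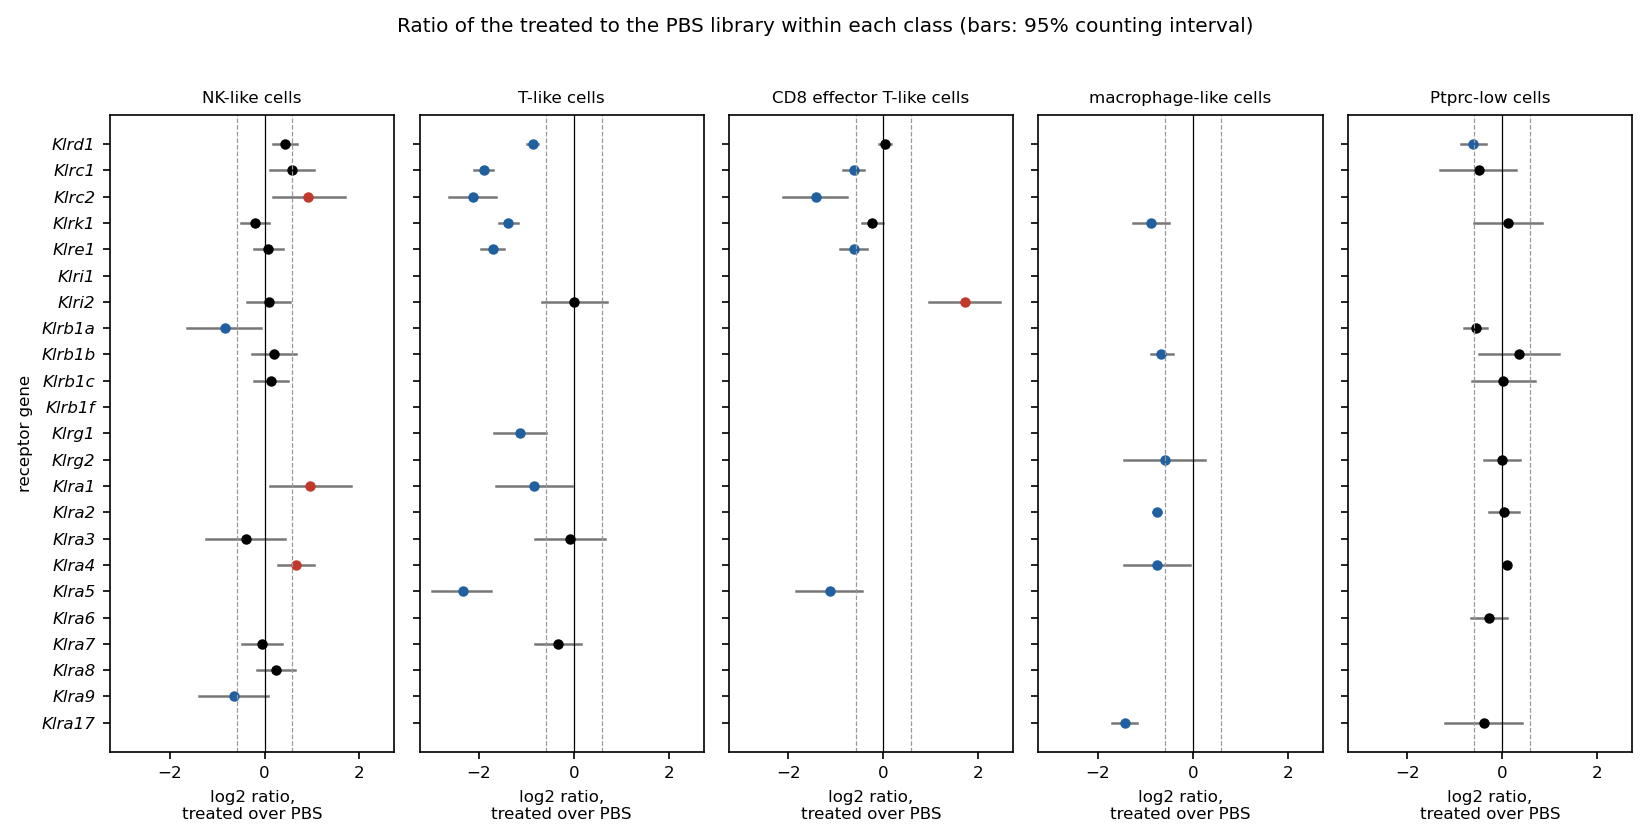
Log2 ratio of the treated to the PBS library (horizontal axis) for each measured receptor gene (vertical axis) in 5 classes, with 95% counting intervals as bars and dashed lines at 1.5-fold. Red points are 1.5-fold or more higher in treated cells, blue points 1.5-fold or more lower, black points between. T-like cells have 8 blue points of 11 and macrophage-like cells 6 of 6, while NK-like cells have points on both sides of 0.

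Among macrophage-like cells all 6 measured members were 1.5-fold or more lower in the treated library (6.47% of measured genes lower, 4.54% higher), with a median of −0.75 against 0.0091. Klra17 was at log2 −1.43 (−1.70 to −1.17), from 61.9 to 22.9 CPM. Klrk1 was at −0.88 (−1.26 to −0.50), Klra2 at −0.76 (−0.84 to −0.68) and Klrb1b at −0.66 (−0.89 to −0.42). Klra4 (−0.75) and Klrg2 (−0.59) rest on 76 and 52 UMIs. At 4.41 CPM treated and 7.39 CPM PBS, Klra4 was below its 11.3 CPM in B-like cells, the background. Klrg2 was on the other side of 0 with equal cell weights (0.11) and with thinned cells (0.16). Under every alternative run Klra17 and Klra2 stayed 1.5-fold or more lower. The other calls ended under some: without doublet removal Klrb1b was at −0.18, Klrk1 at −0.38 and Klrg2 at −0.44, which leaves 3 of the 6 members lower. Klrb1b was also at −0.42 with a stricter cell filter and −0.34 with each library clustered alone, and Klra4 at −0.45 with equal cell weight and −0.25 with thinned cells. The share of macrophage-like cells with a Klra2 UMI after thinning was 21.7% (18.9 to 24.7%) treated and 33.9% (30.2 to 37.8%) PBS. Summed macrophage markers in this class were also lower in the treated library, 15377 against 19592 CPM, and their part in the result was not tested.

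In monocyte-like cells 1 of 3 measured members was higher (4.18%) and 0 lower (5.38%). Klrb1b was at 47.0 CPM treated (182 UMIs in 60 cells) and 16.8 CPM PBS (42 UMIs in 17 cells), log2 1.49 (1.0 to 2.01), but 0.40 with thinned cells, where 16 and 6 cells had a UMI. Klrk1 was at 0.50 (0.06 to 0.95) and Klra2 at −0.26 (−0.39 to −0.13). Conventional dendritic-like cells had 0 of 5 members higher (7.08%) and 0 lower (8.90%), with Klrd1 at 0.44 (0.21 to 0.67), Klrk1 at 0.14 and Klrb1b at 0.01. Over all myeloid cells 0 of 9 members were higher (3.46%) and 1 lower (6.0%), Klra17 at −1.41.

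In Ptprc-low cells 0 of 11 members were higher (4.25%) and 1 lower (5.12%), Klrd1 at −0.61 on levels of 2.45 and 3.73 CPM. Both levels are below the 4.25 CPM of Klrd1 in B-like cells, the background. Klra4 was at 0.10 (0.07 to 0.13), and no alternative took it above 0.27 or below 0.07.

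The genes that work with the receptors were taken from lists. Of 12 adaptors and signalling partners, 5 were measured in NK-like cells (where 10.1% of all measured genes were higher and 10.1% lower) with 1 higher, Cd247 (log2 0.84), which encodes the zeta chain, and 0 lower. Tyrobp was at 1514 and 1404 CPM there, Fcer1g at 2323 and 2318 CPM and Hcst at 410 and 439 CPM. Among 11 other NK receptors 4 were measured, with Il18rap higher (0.74) and Il12rb2 lower (−0.84), and Ncr1 was at −0.28. Among 10 transcription factors of cytotoxic lymphocytes 7 were measured, with Tbx21 higher (0.79; 321 and 186 CPM) and Id2 lower (−0.70).

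In T-like cells, where 7.96% of all measured genes were higher and 12.0% lower, lower values were frequent among the other NK receptors and the transcription factors. Of 10 measured other NK receptors 6 were lower and 0 higher (median log2 −0.80), among them Cd244a (−1.73), Slamf7 (−1.60), Il12rb2 (−1.30) and Il2rb (−1.06). Of 10 measured transcription factors 5 were lower, among them Tbx21 (−1.53), Id2 (−0.90) and Runx3 (−0.86), and 1 was higher, Zbtb16 (1.14). Of 9 measured adaptors Ptpn6, the phosphatase that inhibitory members recruit, was lower (−1.12) and Cd247 higher (0.59).

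Ligands were read in the Ptprc-low cells, which make up most of the RNA. The class I genes H2-K1 (1391 and 1524 CPM) and H2-D1 (743 and 891 CPM), whose products Klra receptors bind, were both within 1.5-fold, and the other 2 class I genes of the list were not analysed here. Of the 9 Klrk1 ligands on the list, Ulbp1 (28.3 and 31.2 CPM) and Raet1e (8.13 and 9.56 CPM) were measured and neither reached 1.5-fold. Clec2d, the ligand of Klrb1b, was at 2.86 and 4.25 CPM (log2 −0.57), and in myeloid cells at 9.64 and 15.9 CPM (−0.72). Cdh2, a cadherin bound by Klrg1, had a log2 ratio of −0.12. In this class 3 of 9 measured adaptors were higher (4.25% of all measured genes), Syk (1.66), Inpp5d (0.86) and Cd247 (0.85), each below 6 CPM, and Ptprc was at 14.7 and 6.19 CPM. The part of leukocyte RNA in these low values was not tested.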

How the data were processed

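Cells of 2 tumour libraries were sequenced from their 3′ ends (MobiCube kit, per the labels). The authors deposited raw UMI counts per gene and barcode; alignment used STAR and mm10, per the submitters' processing notes, while the sources used here name no counting tool or annotation. Barcodes with 200 or more genes and at most 20% mitochondrial UMIs were kept, and the highest Scrublet scores (0.8% per 1000 barcodes; 694 treated and 569 PBS barcodes) were removed. Scanpy 1.11.5 was run on 2000 variable genes without the receptors (30 components, 15 neighbours, Leiden resolution 1.0, T and NK clusters again at 1.0). Counts were summed per class. Intervals are exact: Poisson for CPM, conditional binomial for ratios, Clopper-Pearson for shares; they cover counting error only. The ratio step was tested on simulated Poisson counts, the same model that the intervals assume. Such counts hold no clumping of UMIs in single cells, so the test cannot show how the intervals fare with it. Members, lists and markers were chosen with earlier results of these data known. The naming rule, sub-group units, the Ptprc-low class and the gene pairs were set after seeing the data. Every member with 50 or more UMIs is named; other lists name at most 4 genes by largest ratio, plus ligands. Positions come from GENCODE on GRCm38, promoters from RefSeq. No member overlapped another listed gene on its strand.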

Additional observations from a re-analysis of the deposited data

Results flagged for a closer look

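There were 4 genes that had ratios on opposite sides of 0 in different classes, each at 1.5-fold or more, and in each case the difference between the classes was not tested. Klrb1b was higher in treated monocyte-like cells (log2 1.49) and lower in treated macrophage-like cells (−0.66), but by less than 1.5-fold with thinned monocyte-like cells (0.40) and without doublet removal in macrophage-like cells (−0.18). Klrc2 was higher in NK-like cells (0.92) and lower in T-like cells (−2.13). Klra4 was higher in NK-like cells (0.66) and lower in macrophage-like cells (−0.75), where it had 36 and 40 UMIs. Those are 4.41 and 7.39 CPM, below the 11.3 CPM of B-like cells, which give the background. NK-like cells were at 0.00 with equal cell weight and macrophage-like cells at −0.25 with thinned cells. Klra1 was higher in NK-like cells (0.95, but 0.02 with thinned cells) and lower in T-like cells (−0.84), where the sign changed when cells were classed by Ncr1 and Cd3 UMIs (0.07).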

How the results depend on the processing

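No paired analysis was possible because each group has 1 library, and for the same reason no library could be left out. Of 919 recomputed ratios of the 96 reported, 821 moved by less than their counting interval, 94 moved by more, and 4 changed sign in ratios of 1.5-fold or more: Klrg2 in macrophage-like cells (0.11 with equal cell weight, 0.16 with cells thinned to 1000 UMIs), Klra1 in T-like cells (0.07 with classes by Ncr1 and Cd3 UMIs) and Klre1 in CD8 effector cells (0.19 without the cycling sub-cluster, an alternative chosen after seeing the data). Counting ratios under 1.5-fold, 69 values changed sign, in 38 of the ratios. Of the 35 ratios at 1.5-fold or more, 17 stayed there under each alternative run for them and 18 did not. The 17 include Klrg1 in regulatory T-like cells, for which no alternative was run. Centring on the median gene, or a total without mitochondrial and ribosomal protein genes, moved none of the 96 past its interval, and leaving out shared barcodes, an alternative chosen after seeing the data, none of 69. Counts of members at 1.5-fold that moved by over 1.5 times were these. The share of all genes at 1.5-fold under each setting is not given here, so these counts have no background beside them. With equal cell weight 1 member was higher in whole libraries, 1 in T-like and 1 in Ptprc-low cells, and 3 were lower in Ptprc-low cells. With thinned cells 1 was higher and 3 lower in myeloid cells, and 2 higher and 5 lower in Ptprc-low cells. Thinning takes Ptprc-low cells from a median of 29337 and 32861.5 UMIs to 1000, so their scarce members keep few UMIs. Klra6, for example, was at −2.56 there against −0.28 in the main run. With a minimum of 10 UMIs 1 was higher in whole libraries, 2 in T-like, 2 in myeloid and 2 in Ptprc-low cells, and 2 were lower in myeloid and 3 in Ptprc-low cells. Without doublet removal 2 were higher in whole libraries, and 1 was lower in NK-like, 3 in myeloid and 3 in Ptprc-low cells. With at most 10% mitochondrial UMIs and 500 or more genes 1 was higher in whole libraries. With each library clustered alone 1 was higher and 2 lower in myeloid cells, and 4 lower in Ptprc-low cells. With classes by Ncr1 and Cd3 UMIs 0 were higher and 1 lower in NK-like cells, and 1 was higher in T-like cells. With a macrophage cluster of low RNA added, also chosen after seeing the data, 2 were lower in myeloid cells. The treated share of NK-like cells with 2 or more Klra genes was 43.8% without thinning. The cause of these moves was not tested, apart from the 10 UMI minimum, which counts more genes. Equal weight and thinning were not run for the partner lists, nor median centring and thinning for levels. NK-like cells are few (89 and 83), with a median of 1793 and 2332 UMIs.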
